A study of Mus musculus with 8 samples.

Results

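The genotype comparison in all sorted tumor OT-I cells rested on 4 of the 8 RNA libraries of the series, and it covered the 9574 of 17495 listed genes whose FPKM (fragments scaled to exon length and library size) averaged at least 1 over these 4 libraries. OT-I cells are CD8+ T cells with a transgenic receptor for a peptide of ovalbumin, and the B16-OVA line is mouse melanoma engineered to make ovalbumin. Naive OT-I cells of both genotypes, Zbtb32-/- and WT, shared each B6 host from 1 day before B16-OVA cells were placed under its skin, and each genotype was sorted from the tumors 30 days later. The groups were Zbtb32 knockout (KO) with 2 libraries and WT with 2 libraries. KO and WT cells of a host shared its tumor, but whether the KO and WT libraries came from the same hosts is not stated. The age and sex of the hosts, how many of them gave each library, and which part of Zbtb32 the knockout removes are not given in the sources used here. The labels do not tie the replicates to separate animals, so p-values measure only the spread between these libraries, which may be technical. Values below are deposited FPKM, with replicate 1 before replicate 2 in each genotype.

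Zbtb32 belongs to the BTB zinc finger family, whose members bind DNA and mostly repress transcription by recruiting corepressors. In T cells it is known as a repressor that is induced by activation and that limits the response. CD8+ T cells that meet antigen in a tumor for weeks pass from a progenitor state, which keeps the transcription factor TCF1, to an exhausted state with high Tim-3 and low cytokine output.

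Zbtb32 RNA showed no fall with the KO label. It had 94.9 and 73.0 FPKM in KO-labelled libraries, against 79.8 and 87.1 FPKM in WT-labelled libraries. The genotypes overlapped on this deposited scale, and Zbtb32 was not called after the centring described next (log2 fold change 0.28, SE 0.20, limma adjusted p = 0.331). After that centring its KO-labelled values (102 and 82.2) lay above both WT-labelled values (75.5 and 75.8), as for 33.2% of tested genes. In the separate Tim-3+ libraries, described below, Zbtb32 was also higher without overlap. It had 6822 and 5715 normalized counts in KO-labelled libraries there, against 3976 and 3951 in WT-labelled ones (0.66). Since a gene-level value outside a deleted part shows nothing of the deletion, this is no check of the labels, and every direction below is that of KO-labelled over WT-labelled libraries.

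The deposited values of the KO-labelled libraries differed from those of the WT-labelled ones over most of the range of levels. The median tested gene had 7.32 and 7.02 FPKM in KO-labelled libraries, against 8.36 and 9.08 FPKM in WT-labelled libraries, which puts the median log2 fold change at -0.24 on the deposited scale. The divisor behind the FPKM was 1.12 and 1.25 times the reads recovered from the values in KO-labelled libraries, against 0.963 and 0.952 times in WT-labelled libraries. A larger divisor lowers every FPKM of its library, and its part in this gap was not tested. Each library was therefore multiplied by 1 factor that makes the medians equal, and log2 fold changes below are of log2(FPKM + 1) after this centring, a scale that shrinks the changes of weakly expressed genes. At the low end the order was opposite. Among the 7921 genes with a mean above 0 and under 1 FPKM, 64.1% were higher and 6.02% lower in both KO-labelled libraries than in both WT-labelled libraries after centring, and 8 and 1 genes were listed at 0 in KO-labelled libraries, against 82 and 84 in WT-labelled libraries. Recovered depth was 18.5 to 19.1 M reads in KO-labelled and 20.1 to 21.02 M in WT-labelled libraries. CD8 T cell markers had 0 of 7 members called, with summed levels of 2405 and 1996 FPKM in KO-labelled libraries, against 2908 and 2709 FPKM in WT-labelled libraries.

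After centring, 911 genes were higher (9.52% of those tested) and 1181 lower (12.3%) in KO-labelled libraries by limma at an adjusted p under 0.05. These shares of all tested genes are the background for each list count of this fit below. The falls were the larger: 165 genes fell and 32 genes rose by at least 1 on the log2 scale. On the deposited scale the same test called 235 genes higher (2.45%) and 2909 lower (30.4%). Both that scale and edgeR put the median tested gene below 0, at -0.24 and -0.18, which by itself adds lower calls and removes higher ones. All 1181 lower calls and 235 of the 911 higher calls were also made on the deposited scale. EdgeR on recovered reads also made 1133 of the lower and 340 of the higher calls. It called 2418 genes lower (15.7%) and 1788 higher (11.6%) of the 15379 it tested, which include genes under 1 FPKM. Its shares over the 9574 genes alone are not given, so these percentages are no background for the edgeR counts of lists below. In all 4 fits with 1 library removed, 558 lower and 147 higher calls were made. Tnfrsf17, Slc45a2, Pdia2, Hba-a2 and Hbb-bt among the higher calls were under 1 FPKM in both WT-labelled libraries. Foxp3, Ccl17, Ccl12, Il1b, Rab24, Ier5, Ifitm1, Srp54b, Csf1r, Adgre1 and Fcgr1 among the lower calls were under 1 FPKM in both KO-labelled libraries. Such genes passed the filter only through the genotype where they were higher, and other calls with a mean near 1 FPKM can share this limit. The higher calls leaned on WT-labelled replicate 1. It was below WT-labelled replicate 2 for 88.9% of them, where it was below for 60.2% of all tested genes, and without it 205 genes were called higher and 685 lower.

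**Figure D1:**
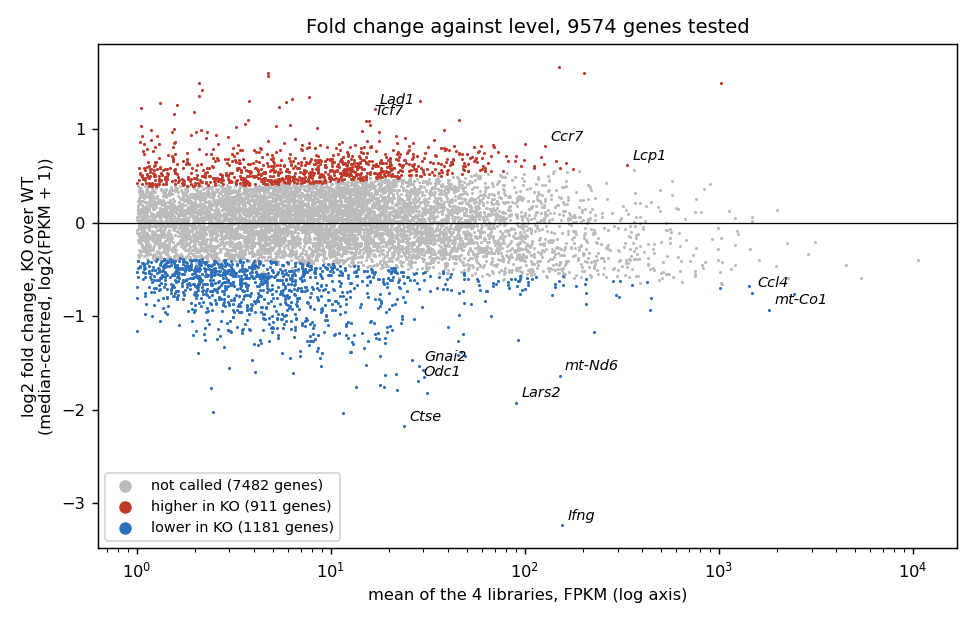
Log2 fold change, KO over WT, after centring (y axis) against the mean FPKM of the 4 libraries (x axis, log scale) for the 9574 tested genes, 1 point a gene, with calls in color. Ifng lies lowest at -3.23, and the largest called falls reach farther from 0 than the largest called rises among named genes.

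The largest fall was in Ifng, the gene of interferon gamma, the cytokine by which CD8+ T cells activate macrophages and raise antigen presentation in tumor cells. It had 26.6 and 21.6 FPKM in KO-labelled libraries, against 318 and 253 FPKM in WT-labelled libraries. Both KO-labelled libraries lay far under both WT-labelled ones (log2 fold change -3.23, SE 0.21, limma adjusted p = 6.63e-11). Ctse, which encodes the endosomal aspartic protease cathepsin E, had 6.97 and 6.51 FPKM in KO-labelled libraries, against 39.2 and 42.4 FPKM in WT-labelled libraries. Its replicates were close to each other in both genotypes and the genotypes were far apart (-2.17, SE 0.17, limma adjusted p = 1.54e-09). Ifng lies on chromosome 10 from 118441046 to 118445892 and Ctse on chromosome 1 from 131638306 to 131675505, both on the plus strand of mm10.

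Several of the 15 largest falls were in genes of basic cell machinery. Lars2, the leucyl-tRNA synthetase of mitochondria, had 30.5 and 32.5 FPKM in KO-labelled libraries, against 163 and 135 FPKM in WT-labelled libraries (-1.93, SE 0.20, limma adjusted p = 1.98e-07). Odc1, ornithine decarboxylase, the rate-limiting enzyme of polyamine synthesis, had 11.2 and 10.6 FPKM in KO-labelled libraries, against 43.1 and 47.5 FPKM in WT-labelled libraries (-1.70, SE 0.17, limma adjusted p = 1.46e-07). Neither gene overlapped between genotypes. Rad21, the cohesin subunit that closes the ring around DNA, had 7.77 and 7.25 FPKM in KO-labelled libraries, against 30.8 and 30.0 FPKM in WT-labelled libraries (-1.62). Hnrnpab, an RNA-binding protein of the nucleus, had 7.07 and 6.17 FPKM in KO-labelled libraries, against 31.3 and 27.3 FPKM in WT-labelled libraries (-1.73). The replicates of both genes differed by far less than the genotypes did. Ugcg, which makes glucosylceramide, the base of most glycosphingolipids, fell by 1.62, Csrp1, a LIM-domain protein of the actin cytoskeleton, by 1.65, and Tprgl by 1.61. Whether the authors' counting used strand is not stated in these sources. In shared bases, reads of Hnrnpab and Tprgl therefore cannot be told apart from those of Phykpl and Wrap73, which overlap them on the other strand. The predicted genes Gm49751 and Gm22748 overlap Ifng and Odc1.

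The other largest falls were in genes of macrophages and monocytes and in a mitochondrial gene. Ccl8, a chemokine of macrophages, had 3.92 and 2.69 FPKM in KO-labelled libraries, against 22.2 and 17.5 FPKM in WT-labelled libraries (-2.04, SE 0.17, limma adjusted p = 1.25e-08). The complement genes C1qb (-1.82) and C1qa (-1.79), the adaptor gene Tyrobp (-1.76) and Wfdc17 (-1.76) also fell, with no overlap between genotypes. The mitochondrial gene mt-Nd6, a subunit of respiratory complex I, fell by 1.63. All 15 of these falls were called in each of the 4 fits that each dropped 1 library.

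**Figure D2:**
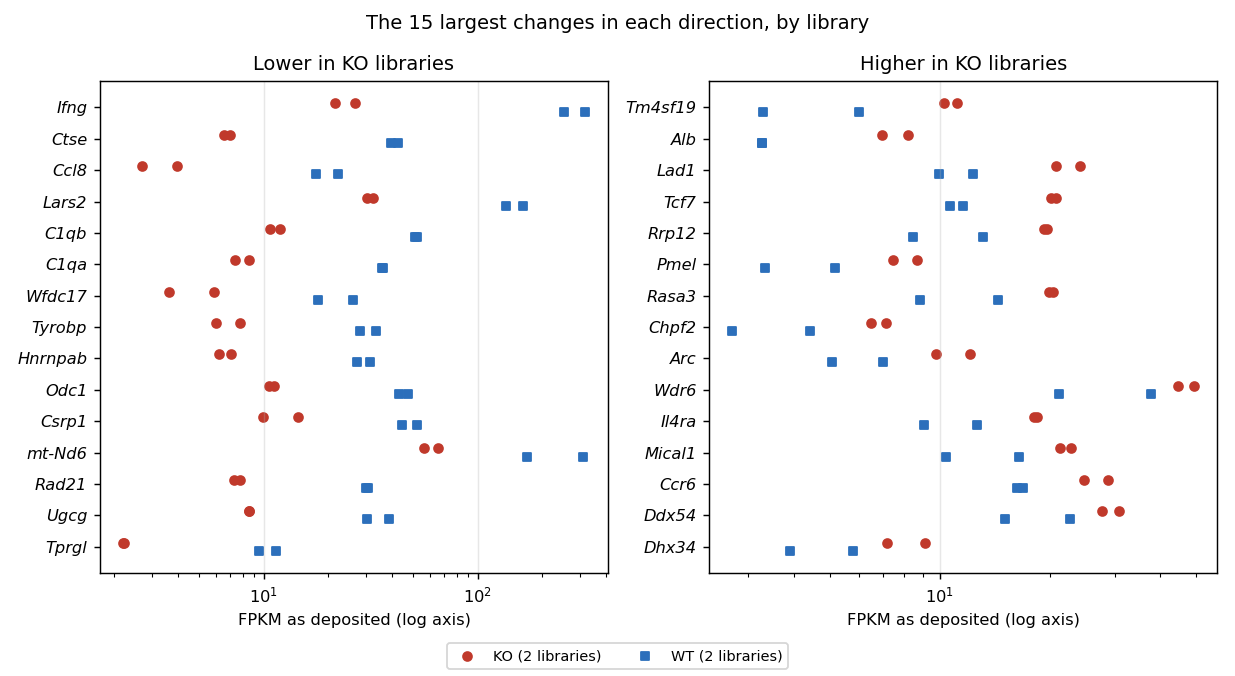
FPKM as deposited (x axis, log scale) of the 15 named genes with the largest falls (left panel) and rises (right panel), KO circles above WT squares for each gene, 1 point a library. For Ifng the KO points lie at 26.6 and 21.6 FPKM and the WT points at 318 and 253 FPKM. The WT squares of Wdr6 lie at 21.2 and 37.7 FPKM, farther apart than its KO circles.

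The DNA just before the start of 3 of these genes is printed to show the kind of promoter each has: Ifng as the largest fall, Odc1 as a fall in a gene of metabolism, and Lad1 as a rise described next. Each run is the 250 bases before the RefSeq start on GRCm38.p6, read 5′ to 3′ on the gene's own plus strand, with motif matches in capitals (TATAAA, or GGGCGG and its reverse complement).
Ifng, chr10:118440796-118441045: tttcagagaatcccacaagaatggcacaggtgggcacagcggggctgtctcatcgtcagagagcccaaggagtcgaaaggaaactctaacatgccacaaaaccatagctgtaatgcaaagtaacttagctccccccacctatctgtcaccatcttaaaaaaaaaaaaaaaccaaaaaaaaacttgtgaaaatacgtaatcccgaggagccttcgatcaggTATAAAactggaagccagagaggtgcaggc
Odc1, chr12:17544623-17544872: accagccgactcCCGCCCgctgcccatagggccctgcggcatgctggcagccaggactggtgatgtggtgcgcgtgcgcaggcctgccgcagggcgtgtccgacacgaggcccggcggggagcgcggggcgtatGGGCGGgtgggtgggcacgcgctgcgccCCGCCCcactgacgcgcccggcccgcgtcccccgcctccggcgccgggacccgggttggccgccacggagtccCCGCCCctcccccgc
Lad1, chr1:135818348-135818597: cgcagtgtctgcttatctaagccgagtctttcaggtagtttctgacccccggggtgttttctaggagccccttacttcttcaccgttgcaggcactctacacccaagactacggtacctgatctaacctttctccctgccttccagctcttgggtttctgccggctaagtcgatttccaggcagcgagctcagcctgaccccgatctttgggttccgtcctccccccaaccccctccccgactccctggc
The Ifng window held 1 TATA box (TATAAA), a motif found in 11.9% of 16505 RefSeq promoter windows of the same length, and 45.2% of its bases were G or C. The Odc1 window held 4 GC boxes (GGGCGG, found in 44.4% of windows) with 35 CpG pairs, against 6 in the Ifng window and 11 in the Lad1 window. The Lad1 window matched none of the 9 motifs searched on both strands, the others being AP-1 (TGANTCA), CRE (TGACGTCA), E-box (CACGTG), ETS (CCGGAAG), NF-Y (CCAAT) and the NRF1 and NF-kB motifs by name. These matches are descriptions of the letters in 3 windows.

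The rises were smaller and spread over genes of many kinds. Lad1, an anchoring filament protein best known from epithelia, had 24.2 and 20.7 FPKM in KO-labelled libraries, against 9.97 and 12.3 FPKM in WT-labelled libraries (1.21, SE 0.17, limma adjusted p = 8.18e-06). Tcf7, the gene of TCF1, had 20.8 and 20.1 FPKM in KO-labelled libraries, against 10.6 and 11.6 FPKM in WT-labelled libraries (1.09, SE 0.16, limma adjusted p = 2.47e-05). Neither overlapped between genotypes, although in shared bases reads of Tcf7 cannot be told apart from those of Gm26551 and A630014C17Rik, which overlap it. Il4ra, the shared receptor chain for interleukins 4 and 13, had 18.4 and 18.1 FPKM in KO-labelled libraries, against 9.07 and 12.6 FPKM in WT-labelled libraries (0.98, SE 0.17, limma adjusted p = 0.000136). Ccr6, the receptor for the chemokine CCL20, had 28.8 and 24.8 FPKM in KO-labelled libraries, against 16.2 and 16.9 FPKM in WT-labelled libraries (0.93). Arc, an immediate-early gene studied mainly in neurons, had 12.1 and 9.75 FPKM in KO-labelled libraries, against 5.08 and 7.01 FPKM in WT-labelled libraries (1.02). The KO-labelled values of these 3 genes were above both WT-labelled values.

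Rrp12, a factor of ribosome assembly, rose by 1.08, Rasa3, a GTPase-activating protein for Ras and Rap1 proteins, by 1.04, and Tm4sf19, a tetraspanning membrane protein, by 1.34. The RNA helicase genes Ddx54 and Dhx34 rose by 0.91 and 0.90. Chpf2, an enzyme of chondroitin chain synthesis, rose by 1.03, Mical1, an actin-oxidizing enzyme, by 0.97, and Wdr6 by 0.99. Chpf2, Mical1, Wdr6, Ddx54, Il4ra and Pmel share bases with genes on the other strand. In most of these genes WT-labelled replicate 1 was well under replicate 2, as for Rrp12 with 19.6 and 19.2 FPKM in KO-labelled libraries, against 8.43 and 13.1 FPKM in WT-labelled libraries. Wdr6 lost its call in 1 of the 4 leave-one-out fits, and the other 14 of the 15 rises were called in all 4.

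Alb, the serum albumin gene of hepatocytes, and Pmel, the melanosome matrix gene of melanocytes and melanoma cells, completed the 15 rises. Alb had 8.20 and 6.96 FPKM in KO-labelled libraries, against 3.27 and 3.26 FPKM in WT-labelled libraries (1.23), and Pmel had 8.66 and 7.45 FPKM in KO-labelled libraries, against 3.34 and 5.16 FPKM in WT-labelled libraries (1.04). Other markers of these foreign cells were mostly higher too, in counts that include Alb and Pmel themselves. Of the hepatocyte markers 4 of 4 tested were called higher, with summed levels of 24.9 and 20.4 FPKM in KO-labelled libraries, against 13.4 and 10.8 FPKM in WT-labelled libraries. Of the melanoma markers 5 of 6 tested were called higher, with sums of 22.7 and 20.7 FPKM in KO-labelled libraries, against 12.3 and 15.96 FPKM in WT-labelled libraries. The sixth, Mlana, was not called and went the opposite way, with 1.94 and 1.75 FPKM in KO-labelled libraries, against 2.84 and 3.12 FPKM in WT-labelled libraries (-0.29). The hemoglobin genes, which mark red blood cells, were called higher in 4 of 4, with sums over the red cell markers of 22.3 and 15.4 FPKM in KO-labelled libraries, against 10.3 and 8.17 FPKM in WT-labelled libraries. Single hemoglobin genes are uncertain because their copies are near-identical, and Hbb-bt rested on KO-labelled replicate 1, at 6.56 and 0.918 FPKM in KO-labelled libraries, against 0.441 and 0.710 FPKM in WT-labelled libraries. Slc45a2, Hba-a2 and Hbb-bt passed the filter only through the KO-labelled libraries. Summed neutrophil markers were also higher, at 2.14 and 2.05 FPKM in KO-labelled libraries, against 1.37 and 1.47 FPKM in WT-labelled libraries. Fibroblast sums were higher as well, while endothelium and keratinocyte sums overlapped. Of all genes under 1 FPKM, 64.1% were higher without overlap. None of these markers was at 0 in all libraries, and their part in the results was not tested.

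Among abundant genes (a mean of 100 FPKM or more) the 8 largest falls were those of Ifng, mt-Nd6, mt-Nd2, mt-Nd4, mt-Co1, Cd74, S100a4 and Gzmc. S100a4, a calcium-binding protein of motile and effector cells, had 304 and 267 FPKM in KO-labelled libraries, against 668 and 554 FPKM in WT-labelled libraries (-0.81, SE 0.23, limma adjusted p = 0.0114). Gzmc, a granzyme of strongly activated killer cells, had 207 and 185 FPKM in KO-labelled libraries, against 439 and 388 FPKM in WT-labelled libraries (-0.80, SE 0.22, limma adjusted p = 0.01003). Each kept its call in 1 of the 4 fits with 1 library removed.

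With predicted genes left out, the 8 largest rises at that level were Ccr7, Uba1, Akna, Mcm3, Psmd2, Lcp1, Tnfrsf1b and Msn. Ccr7, the receptor that guides T cells into lymph nodes, had 164 and 135 FPKM in KO-labelled libraries, against 94.0 and 111 FPKM in WT-labelled libraries (0.82, SE 0.20, limma adjusted p = 0.00497). Uba1, the enzyme that starts ubiquitin transfer, rose by 0.70, and Lcp1 and Msn, which bundle actin and tie it to the membrane, by 0.61 and 0.59. None of the 8 was called on the deposited scale, where they lay between 0.31 and 0.54, and edgeR called Ccr7 (0.64) and Uba1 (0.50) only. On the deposited scale Tnfrsf1b, the TNF receptor 2 gene, overlapped between genotypes, at 123.9 and 122.0 FPKM in KO-labelled libraries, against 77.9 and 122.6 FPKM in WT-labelled libraries. The calls of these 8 genes were made in 0 to 2 of the 4 fits that each dropped 1 library, and all 8 had their lowest value in WT-labelled replicate 1.

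In the Tim-3+ cells labelled Ttex, a separately normalized table, a few of these genes had the same direction without overlap. Ctse had a log2 fold change of -3.90 there, Tcf7 1.96, Lad1 1.82, Pmel 1.41, Ccr6 2.30 and Ccr7 0.89, and Rad21 -0.55. Of the 15 largest falls, 5 were lower and 6 higher without overlap there. The other 4 overlapped between genotypes: Lars2 (1.01), Odc1 (-0.19), Hnrnpab (-0.17) and Csrp1 (0.02). Of the 15 largest rises, 4 were higher and 5 lower without overlap, and 6 overlapped. Lad1 had 1300 and 1479 normalized counts in KO-labelled Ttex libraries, against 382 and 403 in WT-labelled Ttex libraries, and Ccr6, at low counts, had 39.9 and 79.2, against 13.2 and 8.48. Ifng did not show a difference of like size: it had 15219 and 13085 normalized counts in KO-labelled Ttex libraries, against 15444 and 15759 in WT-labelled Ttex libraries, lower without overlap but by far less (-0.14). Over the genes of both tables, 371 of the 1107 lower calls (33.5%) were lower without overlap in Ttex cells, where 33.5% of all 8960 genes were. Of the 815 higher calls, 91 (11.2%) were higher without overlap in Ttex cells, where 14.1% of all genes were, and 407 (49.9%) were lower without overlap. No test was made of these differences between populations.

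The proteins that mitochondria make themselves are subunits of respiratory complexes I, III and IV and of the ATP synthase. Their genes were lower as a group: 12 of 13 were called lower and 0 higher, against a background of 12.3% called lower, with a median log2 fold change of -0.94. All 13 were lower in both KO-labelled libraries than in both WT-labelled ones, as were 29.6% of all tested genes, while 33.2% of tested genes were higher in both. The most abundant called one, mt-Nd1, had 1677 and 1490.2 FPKM in KO-labelled libraries, against 3747 and 2822 FPKM in WT-labelled libraries (-0.76), and mt-Co1 had 1079.7 and 1098.6 FPKM in KO-labelled libraries, against 2569.6 and 2479 FPKM in WT-labelled libraries (-0.93). Neither was called in any of the 4 leave-one-out fits. mt-Co2 had 20.8 and 17.4 FPKM in KO-labelled libraries, against 104 and 38.3 FPKM in WT-labelled libraries (-1.41), the WT-labelled libraries being far apart. The exception was mt-Cytb (-0.60, limma adjusted p = 0.0873), which edgeR and the deposited scale called with the rest. Without WT-labelled replicate 1, 5 of the 13 were called, and 8 to 10 without another library. Their summed share of all FPKM was 1.82% and 1.92% in KO-labelled libraries, against 3.20% and 2.72% in WT-labelled libraries. The span of mt-Nd6 (13552 to 14070) overlaps that of mt-Nd5 on the other strand (11742 to 13565) only from 13552 to 13565, where reads cannot be told apart. Nuclear copies of mitochondrial DNA can share reads of all these genes.

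The nuclear genes of the same complexes mostly lay below the median gene, but few were called. No list stood far above the 12.3% of all tested genes. The respiratory lists are of abundant genes, however, with list medians of 83.2 to 139.7 FPKM. Of the most abundant decile of tested genes, at 58.6 FPKM or more, 5.74% were called lower. Of 37 complex I subunits 3 were called lower, Ndufb3 (-0.63), Ndufb5 (-0.53) and Ndufb4 (-0.53), and 34 lay below the median gene, with a list median of -0.41. Of 14 complex IV subunits 2 were called lower, Cox6c (-0.75) and Cox5a (-0.62), with a median of -0.49, and of 17 ATP synthase subunits 3, with a median of -0.38. None of 13 genes of complex III and cytochrome c was called (median -0.34, Uqcr10 -0.30, Uqcr11 -0.41). Mitochondrial import had 3 of 22 lower, led by Tomm70a, a receptor for incoming precursors, with 1.79 and 1.62 FPKM in KO-labelled libraries, against 5.89 and 5.83 FPKM in WT-labelled libraries (-1.13). The import count was 1 without WT-labelled replicate 1 and 2 without KO-labelled replicate 2. EdgeR on recovered reads, which put the median tested gene at -0.18, called more of these genes lower. Its counts were 24 for complex I, 10 for complex IV, 9 for the ATP synthase and 7 for complex III. The 15.7% that edgeR called lower is over a wider set with genes under 1 FPKM, so it is no background for these counts. Without WT-labelled replicate 1 or KO-labelled replicate 2 none of these 4 lists of nuclear respiratory genes had a call.

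**Figure D3:**
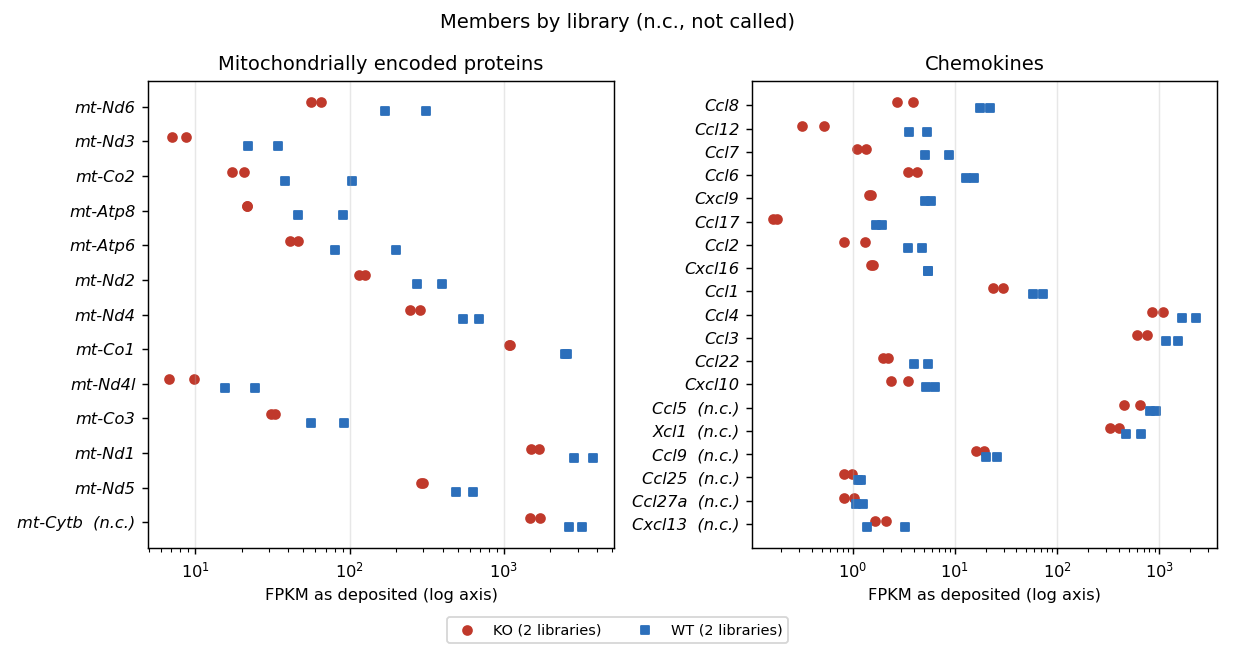
FPKM as deposited (x axis, log scale) of the 13 tested mitochondrially encoded genes (left panel) and the 19 tested chemokine genes (right panel), KO circles above WT squares for each gene, 1 point a library. All 13 mitochondrial genes have both KO points left of both WT points, and 13 of the 19 chemokine genes were called lower.

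Translation genes did not move as a whole, but ribosomal protein genes mostly lay below the median gene. Of the cytosolic ribosomal list 81 of 82 did so, and 65 were lower and 0 higher without overlap between genotypes. Of the mitochondrial ribosomal list 72 of 77 did so, and 32 were lower and 3 higher without overlap. Of all tested genes 29.6% were lower and 33.2% higher without overlap. Cytosolic ribosomal proteins had 20 of 82 called lower and 0 higher with a median of -0.53, among them Rps27a, with 227 and 159 FPKM in KO-labelled libraries, against 451 and 347 FPKM in WT-labelled libraries (-0.77). That count was 71 by edgeR, and with a library left out it was 7 (KO-labelled replicate 1), 4 (KO-labelled replicate 2), 1 (WT-labelled replicate 1) and 37 (WT-labelled replicate 2). Reads of ribosomal protein genes can be shared with their many pseudogenes. Mitochondrial ribosomal proteins had 5 of 77 lower (median -0.24), a share under that of all genes, and none was called without WT-labelled replicate 1 or without KO-labelled replicate 2, while edgeR, with its lower median, called 34 of them.

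Initiation and elongation factors had 8 of 65 lower and 1 higher, the lower share being that of all tested genes (12.3%), and 4 were lower without WT-labelled replicate 1 or without KO-labelled replicate 1. Eif3b, a core subunit of the initiation factor that loads messenger RNA onto the ribosome, had 12.9 and 11.9 FPKM in KO-labelled libraries, against 46.2 and 48.1 FPKM in WT-labelled libraries (-1.58, SE 0.17, limma adjusted p = 4.47e-07). It stood apart from its list, whose median was -0.17. Eif4ebp2, which holds back cap-dependent initiation, fell by 0.74.

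Aminoacyl-tRNA synthetases, which load amino acids onto tRNAs, had 9 of 37 called higher, where 9.52% of all tested genes were, and Lars2 alone was called lower. Mars1 had 92.7 and 77.1 FPKM in KO-labelled libraries, against 51.3 and 71.0 FPKM in WT-labelled libraries (0.76). Aars rose by 0.74 and Aars2, its mitochondrial counterpart, by 0.73. The list median was 0.29 after centring and 0.02 on the deposited scale, where 1 was called higher and 4 lower. Without WT-labelled replicate 1 only 1 was called higher, and without KO-labelled replicate 1 the count was 4. Ribosome biogenesis genes had 10 of 66 higher and 2 lower, with Mybbp1a (0.81) and Nol6 (0.65) beside Rrp12, and Utp18, a part of the small-subunit processome, lower (-0.95). Their median was 0.08 after centring and -0.19 on the deposited scale, and without WT-labelled replicate 1 only 1 was called higher. RNA helicases had 9 of 48 higher and 2 lower (3 and 1 without WT-labelled replicate 1), with the splicing helicase Dhx38 at 0.87 and the G-quadruplex unwinder Dhx36 at -0.81; their median was 0.23 after centring and -0.03 on the deposited scale.

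Chemokines draw leukocytes along gradients, and activated CD8+ T cells themselves secrete large amounts of CCL3, CCL4, CCL5 and XCL1. Of 19 tested chemokine genes 13 were called lower and 0 higher, with a median of -0.75. The abundant Ccl4 had 1087 and 843 FPKM in KO-labelled libraries, against 2297 and 1664 FPKM in WT-labelled libraries (-0.75, SE 0.25, limma adjusted p = 0.0357), and Ccl3 had 752 and 610 FPKM in KO-labelled libraries, against 1526 and 1165 FPKM in WT-labelled libraries (-0.70, SE 0.24, limma adjusted p = 0.0420). Both kept their calls in 1 of the 4 leave-one-out fits. Ccl1, a chemokine of activated T cells, had 29.2 and 23.8 FPKM in KO-labelled libraries, against 72.6 and 57.5 FPKM in WT-labelled libraries (-0.99), and was called in all 4 such fits. Ccl5 (-0.41) and Xcl1 (-0.33) were not called.

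The other called chemokines had low levels and are mostly made by myeloid cells. Ccl12 had 0.521 and 0.320 FPKM in KO-labelled libraries, against 5.30 and 3.53 FPKM in WT-labelled libraries (-1.76), Ccl7 fell by 1.60, and the called log2 fold changes of Ccl6 (-1.40), Cxcl9, an interferon gamma target (-1.18), Ccl17 (-1.15), Ccl2 (-1.13) and Cxcl16 (-1.13) followed. Macrophage and monocyte markers were also lower, with 12 of 14 tested called lower. That count includes C1qa, C1qb and Tyrobp, already named above among the largest falls, so it is not independent of them. It also includes Csf1r, Adgre1 and Fcgr1, under 1 FPKM in both KO-labelled libraries, which passed the filter only through the WT-labelled ones. Of the called chemokines, Ccl12 and Ccl17 passed the filter in the same way, and Ccl8 was named among the largest falls. Summed macrophage and monocyte levels were 115 and 91.3 FPKM in KO-labelled libraries, against 360 and 324 FPKM in WT-labelled libraries. Of the dendritic cell markers 4 of 8 tested were lower, namely the class II genes H2-Aa, H2-Ab1 and H2-Eb1 and Cd74, the class II chaperone, which had 130 and 127 FPKM in KO-labelled libraries, against 296 and 277 FPKM in WT-labelled libraries (-0.87). The other 4 were not called, and of these Ciita (0.22), Zbtb46 (0.17) and Itgax (0.11) were higher after centring without overlap. None of these markers was at 0 in all libraries, and their part in the chemokine result was not tested. In such bulk samples fewer cells of a type and less RNA per cell cannot be told apart.

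Among chemokine and lipid mediator receptors, 4 of 19 were called higher and 2 lower. Cxcr5, the receptor for the follicle chemokine CXCL13, had 5.08 and 5.15 FPKM in KO-labelled libraries, against 1.83 and 2.88 FPKM in WT-labelled libraries (1.101, SE 0.15, limma adjusted p = 8.18e-06). It rose with Ccr6, Ccr7 and 1 further receptor, S1pr1, which leads T cells out of tissues (0.69), while Ccr2, the receptor for CCL2, fell by 0.50. The list median was 0.12 after centring and -0.15 on the deposited scale.

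The progenitor and memory list, with 10 of 20 called higher and 0 lower, had a median of 0.36 after centring and 0.15 on the deposited scale, where 7 were called higher and 5 lower. Its called members included Tcf7, Cxcr5, Ccr7, Slamf6, S1pr1, Bach2, Tnfsf8, Id3 and Lef1. Bach2, a repressor that keeps T cells from effector fate, had 3.89 and 3.32 FPKM in KO-labelled libraries, against 2.27 and 2.37 FPKM in WT-labelled libraries (0.68). Other members of the same program stood at or below the median gene: Eomes (-0.40), Foxo1 (-0.38), Myb (-0.37), Xcl1 (-0.33) and Klf2 (-0.31) were not called, and Foxo1 had a limma adjusted p of 0.0523. Between 7 and 10 were called higher in the fits with 1 library removed.

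Effector and exhaustion genes had 1 of 30 called lower, Ifng, and 2 higher, Nr4a1 (0.54) and Cd101 (0.54), with a median of 0.05. On the deposited scale WT-labelled replicate 2 overlapped the KO-labelled libraries in both genes, and those 2 rises were lost without WT-labelled replicate 1 and without KO-labelled replicate 1. The cytotoxic granule list had 3 of 19 lower and 1 higher, against backgrounds of 12.3% and 9.52%, and 1 was lower without WT-labelled replicate 1 or without KO-labelled replicate 2. Gzma had 15.3 and 10.9 FPKM in KO-labelled libraries, against 33.1 and 26.7 FPKM in WT-labelled libraries (-0.87), and Gzmk fell by 0.63, while Gzmg had 20.96 and 16.6 FPKM in KO-labelled libraries, against 12.3 and 11.4 FPKM in WT-labelled libraries (0.87). Granzyme genes have close copies whose reads may have been shared out among them, which leaves single members uncertain. Killer cell lectin-like receptors, the surface receptors shared with NK cells, had 5 of 11 lower and 0 higher (median -0.43; 2 lower without WT-labelled replicate 1), with Klra3 at 15.01 and 12.4 FPKM in KO-labelled libraries, against 31.4 and 28.7 FPKM in WT-labelled libraries (-0.82). The same doubt holds for the Klra genes.

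Members of the TNF superfamily, ligands and receptors that carry costimulation and death signals, had 8 of 28 called higher and 0 lower (4 and 0 on the deposited scale and without WT-labelled replicate 1). They were led by receptors best known from B cells, Tnfrsf17 (BCMA), with 1.43 and 1.74 FPKM in KO-labelled libraries, against 0.762 and 0.429 FPKM in WT-labelled libraries (0.84), and Tnfrsf13c (BAFF receptor), with 6.51 and 4.01 FPKM in KO-labelled libraries, against 3.76 and 2.76 FPKM in WT-labelled libraries (0.76). The B cell markers tested had 0 of 2 called, and the summed B cell markers were at 2.73 and 3.71 FPKM in KO-labelled libraries, against 3.62 and 3.14 FPKM in WT-labelled libraries. Tnfrsf17 passed the filter only through its KO-labelled libraries. Tnfsf8, the CD30 ligand, rose by 0.67.

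Interleukins and their receptors had 4 of 34 higher and 5 lower, near the shares of all tested genes (9.52% and 12.3%). Besides Il4ra, Il10, the anti-inflammatory cytokine, had 3.27 and 2.46 FPKM in KO-labelled libraries, against 6.16 and 5.07 FPKM in WT-labelled libraries (-0.56, limma adjusted p = 0.0115). Il1b (-1.05) and Csf1r (-0.52), which myeloid cells express, also fell. Foxp3, the factor of regulatory T cells, had 0.458 and 0.226 FPKM in KO-labelled libraries, against 1.90 and 1.83 FPKM in WT-labelled libraries (-0.98).

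Genes that carry signals inside the cell held many of the sharp falls. Immediate-early genes, switched on within minutes of receptor signalling, had 6 of 27 lower and 3 higher. Jund, a subunit of the AP-1 factor, had 2.74 and 2.14 FPKM in KO-labelled libraries, against 10.4 and 9.49 FPKM in WT-labelled libraries (-1.45, SE 0.15, limma adjusted p = 2.72e-07). Ier5 fell by 1.24 and Zfp36l2, which promotes decay of AU-rich messages, by 1.14, while Egr2 rose by 0.57. The 3 rises of the list were lost without WT-labelled replicate 1, where 6 falls were called.

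Dual-specificity phosphatases, many of which switch off MAP kinases, and the Sprouty family of signalling inhibitors had 4 of 19 called lower and 0 higher, against backgrounds of 12.3% and 9.52%. Dusp2 had 3.30 and 3.57 FPKM in KO-labelled libraries, against 11.4 and 11.9 FPKM in WT-labelled libraries (-1.27), Dusp5 had 9.53 and 8.35 FPKM in KO-labelled libraries, against 25.6 and 26.2 FPKM in WT-labelled libraries (-1.18), and Spry2, a Sprouty gene, fell by 0.54. The count was 2 without WT-labelled replicate 1 or without KO-labelled replicate 1. The kinases themselves had 7 of 29 lower and 3 higher, with the kinase of the NF-kB and stress branches Map3k7 (TAK1) at -0.94, the p38 kinase Mapk14 at -0.93 and the ERK1 gene Mapk3 at -0.70, and the 3 rises were lost without WT-labelled replicate 1 and without KO-labelled replicate 2.

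Serine-threonine protein phosphatases had 16 of 48 subunits called lower and 4 higher, where 12.3% of all tested genes were lower. Ppp2ca, the catalytic subunit of PP2A, had 2.24 and 2.25 FPKM in KO-labelled libraries, against 9.04 and 8.84 FPKM in WT-labelled libraries (-1.39, SE 0.15, limma adjusted p = 2.72e-07). Ppp1cc, a catalytic subunit of PP1, had 3.56 and 3.73 FPKM in KO-labelled libraries, against 12.7 and 13.8 FPKM in WT-labelled libraries (-1.37), and Ppp1r14b, an inhibitor of PP1, fell by 1.47. Between 13 and 16 were called lower in the fits that each dropped 1 library. The 4 rises included Ppp1r15a (GADD34), a stress-induced subunit, at 0.64, and none of the 4 was called without WT-labelled replicate 1.

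Heterotrimeric G proteins relay chemokine receptor signals, and 6 of 27 genes of that list were lower and 1 higher (2 and 1 without WT-labelled replicate 1). Gnai2, the inhibitory alpha subunit through which chemokine receptors act in lymphocytes, had 12.6 and 11.53 FPKM in KO-labelled libraries, against 44.8 and 44.2 FPKM in WT-labelled libraries (-1.53, SE 0.17, limma adjusted p = 5.94e-07). Gnb2, a beta subunit, had 6.37 and 5.94 FPKM in KO-labelled libraries, against 20.8 and 19.03 FPKM in WT-labelled libraries (-1.29). NF-kB genes had 4 of 31 higher and 4 lower, near the shares of all tested genes, and Chuk (IKK alpha, -0.85) and Nfkb1 (-0.73) were among the falls. These NF-kB counts were 0 higher and 2 lower without WT-labelled replicate 1, 1 and 3 without KO-labelled replicate 1, and 2 and 3 without KO-labelled replicate 2. The T cell receptor complex and its proximal kinases changed little, with 2 of 37 lower and 3 higher. Fyn, a Src-family kinase, had 11.54 and 10.8 FPKM in KO-labelled libraries, against 24.9 and 25.5 FPKM in WT-labelled libraries (-0.84), and Cd6 and Vav1 rose by 0.65 and 0.61. No rise of this list was called without WT-labelled replicate 1.

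Chromatin and RNA-processing genes held falls of like size. Of 102 chromatin modifiers and remodellers 25 were called lower and 10 higher (12 and 1 without WT-labelled replicate 1). Smarca5, the ISWI remodelling motor, had 3.38 and 3.49 FPKM in KO-labelled libraries, against 12.6 and 11.2 FPKM in WT-labelled libraries (-1.30). Suz12, a core subunit of the Polycomb methyltransferase complex PRC2, had 3.50 and 3.73 FPKM in KO-labelled libraries, against 12.1 and 12.03 FPKM in WT-labelled libraries (-1.26), and Smarcd2, a BAF complex subunit, fell by 1.26. Both Smarca5 and Suz12 were called in all 4 leave-one-out fits. The rises had smaller sizes, with Hdac10 at 0.69.

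Of 74 splicing factors and hnRNPs 12 were lower and 3 higher, with 10 lower and 1 higher without WT-labelled replicate 1. Srsf1, the founding SR splicing factor, had 6.77 and 6.97 FPKM in KO-labelled libraries, against 24.9 and 20.9 FPKM in WT-labelled libraries (-1.34), and Hnrnpu fell by 1.24, while Rbm10 rose by 0.80. RNA polymerase II and Mediator subunits had 6 of 42 lower, led by Med14 (-0.96) and Med13 (-0.94), and 4 higher, near the shares of all tested genes. Those counts were 2 lower and 0 higher without WT-labelled replicate 1, and 4 and 1 without KO-labelled replicate 1. Nuclear pore proteins had 4 of 24 lower, led by Nup153 (-0.97) and Ranbp2 (-0.79), and 2 higher, both lost without WT-labelled replicate 1 and without KO-labelled replicate 2. Zinc finger proteins, the wider family of Zbtb32, had 32 of 261 higher and 15 lower, against backgrounds of 9.52% higher and 12.3% lower, Zfp335, Zfp790 and Zfp658 leading at 0.77, 0.75 and 0.68. Their median was 0.10 after centring and -0.11 on the deposited scale, where 6 were higher and 47 lower. EdgeR called 6 higher and 30 lower, and without WT-labelled replicate 1 the counts were 3 and 10.

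Genes of protein turnover were called in both directions, beside a background of 12.3% lower and 9.52% higher. Of 30 ubiquitin-conjugating enzymes 6 were called lower and 0 higher, among them Ube2q1 (-1.15), Ube2m, which conjugates NEDD8 to cullins (-1.08), and Ube2z (-0.90). RING and TRIM ligases had 17 of 82 lower and 7 higher with a median of -0.06 (8 and 1 without WT-labelled replicate 1). Trim28, the corepressor of KRAB zinc finger proteins, had 9.61 and 8.81 FPKM in KO-labelled libraries, against 28.2 and 29.7 FPKM in WT-labelled libraries (-1.29). Deubiquitinases of the Usp family had 8 of 38 lower and 8 higher, with Usp1 (-1.20), Usp25 (-1.10) and Usp7 (-1.02) lower and Usp11 (0.68) higher. The Usp counts were 5 lower and 1 higher without WT-labelled replicate 1, and 4 and 7 without KO-labelled replicate 1. The proteasome itself had 2 of 47 lower, its activators Psme3 (-1.05) and Psme4 (-0.73), and Psmd2, a subunit of its cap, higher.

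Vesicle traffic and the cytoskeleton were mixed. Rab GTPases, the switches of vesicle traffic, had 10 of 44 lower and 0 higher (7 to 11 lower with a library left out). Rab35, of the endocytic recycling route, had 2.48 and 2.21 FPKM in KO-labelled libraries, against 7.72 and 7.26 FPKM in WT-labelled libraries (-1.12), and Rab24 (-1.40) and Rab21 (-1.25) fell further. Sorting nexins and VPS proteins had 9 of 59 higher, with Vps18 (0.66), Vps11 (0.65) and Vps16 (0.64), which sit in the same tethering complexes, and 7 lower, led by Snx25 (-1.01). Without WT-labelled replicate 1 those counts were 0 and 3. Lysosomal genes had 4 of 34 lower, with Lamp1, a major lysosomal membrane protein, at 1.72 and 1.87 FPKM in KO-labelled libraries, against 7.21 and 6.57 FPKM in WT-labelled libraries (-1.28), next to Ctse, and Man2b1 higher (0.53). None of 16 vacuolar ATPase genes was called, with Atp6v1f at -0.32 and Atp6v1g1 at -0.46. Autophagy genes had 4 of 29 higher, led by the cargo receptor Nbr1 (0.83), and 2 lower, led by Ulk2 (-0.67), and none was called higher without WT-labelled replicate 1.

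Actin genes had 7 of 47 higher and 2 lower, with the crosslinker Actn4 (0.84) and Coro1c (0.69) higher and the formin Diaph1 lower (-1.06). None of these rises was called without WT-labelled replicate 1. Itgav, the alpha V integrin, was the only called member of 13 integrins (-0.87), and none of 10 tubulins was called (Tubb5 -0.18, Tuba1b -0.12). S100, annexin and galectin genes had 4 of 21 lower, with S100a6 (-0.69) and S100a13 (-0.68) beside S100a4, and Lgals4 higher (0.58). None of these S100, annexin and galectin falls was called without WT-labelled replicate 1 or without KO-labelled replicate 2.

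Metabolic genes had few calls, beside a background of 9.52% higher and 12.3% lower among all tested genes. Glycolysis had 4 of 24 higher and 0 lower, with Hk1, a first-step hexokinase, at 30.3 and 28.4 FPKM in KO-labelled libraries, against 16.05 and 25.97 FPKM in WT-labelled libraries (0.77), and Pfkl at 0.67. The median was 0.21 after centring and -0.06 on the deposited scale. The tricarboxylic acid cycle had 2 of 22 higher, among them Ogdh (0.83), nucleotide synthesis 3 of 31, with Mthfd1 (0.69) and Gart (0.68), and sterol and fatty acid synthesis 4 of 29, with Acly (0.69). All the rises of these 4 lists were lost without WT-labelled replicate 1. Antioxidant genes had 5 of 37 lower and 1 higher. Gsr, glutathione reductase, had 4.92 and 5.39 FPKM in KO-labelled libraries, against 12.8 and 12.7 FPKM in WT-labelled libraries (-0.91), and Hmox1, which breaks down heme, had 12.6 and 9.56 FPKM in KO-labelled libraries, against 23.8 and 26.5 FPKM in WT-labelled libraries (-0.86).

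Solute carriers had 21 of 145 higher and 12 lower (4 and 6 without WT-labelled replicate 1), with Slc26a11 (0.92), Slc39a7 (0.74) and the melanosome transporter Slc45a2 (0.73) higher. The largest fall was in Slc7a5, the large neutral amino acid transporter that T cells need for growth, with 3.51 and 3.45 FPKM in KO-labelled libraries, against 14.2 and 14.5 FPKM in WT-labelled libraries (-1.54, SE 0.15, limma adjusted p = 1.08e-07).

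Cell division genes were not lower as a group, and their shares of calls were near or under those of all tested genes (9.52% higher, 12.3% lower). DNA replication had 5 of 52 higher, with Pold1 (0.73), Mcm2 (0.71) and Mcm10 (0.68), and Dbf4, the activator of the replication kinase CDC7, lower (-0.59), and mitosis had 3 of 63 higher and 5 lower. Mki67, the proliferation marker, had 11.6 and 13.2 FPKM in KO-labelled libraries, against 27.3 and 30.2 FPKM in WT-labelled libraries (-0.88, SE 0.17, limma adjusted p = 0.000477), while the spindle checkpoint kinase gene Bub1b had 53.2 and 52.5 FPKM in KO-labelled libraries, against 31.5 and 46.2 FPKM in WT-labelled libraries (0.73). The rises of both lists were lost without WT-labelled replicate 1, and Mki67 was called in all 4 fits with 1 library removed. The 3 tested histone genes were not called (H3f3a -0.33, H3f3b -0.38).

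Survival genes of the BCL2 family had 4 of 17 lower and 0 higher (2 without WT-labelled replicate 1). Mcl1, on which T cells depend for survival, had 9.36 and 8.05 FPKM in KO-labelled libraries, against 25.3 and 21.1 FPKM in WT-labelled libraries (-1.06), and the pro-apoptotic pore gene Bak1 fell by 0.67. Bcl2a1a fell by 1.16, with the doubt that it has near-identical copies. Caspases and inhibitors of apoptosis had 2 of 17 lower, near the 12.3% of all tested genes, both inhibitors, Xiap (-0.73) and Birc6 (-0.60). Heat shock proteins and chaperonins had 4 of 63 lower and 2 higher, among them Dnajc13 (-0.71) and Dnajc11 (0.55), and genes of endoplasmic reticulum entry and folding 3 of 42 lower and 2 higher, with Sec63 (-0.54) and Pdia2 (0.77). Of these, Srp54b (-0.81) rested on WT-labelled replicate 1, at 0.351 and 0.162 FPKM in KO-labelled libraries, against 3.24 and 0.266 FPKM in WT-labelled libraries, and has near-identical copies.

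Few genes of the type I interferon, guanylate-binding and class I lists were called, while class II genes fell as given above. The type I interferon list counted 4 of 38 genes lower and 0 higher, led by the viral entry blockers Ifitm3, with 6.32 and 4.95 FPKM in KO-labelled libraries, against 20.8 and 18.4 FPKM in WT-labelled libraries (-1.39), Ifitm2 (-1.21) and Ifitm1 (-1.05). Myeloid cells also express the Ifitm genes, whose close copies can share reads, and the macrophage markers were lower beside them as given above. Guanylate-binding and immunity-related GTPases, which interferon gamma induces, had 0 of 15 lower and 1 higher, Gbp10 (0.48), which was lost without WT-labelled replicate 1. MHC class I presentation had 1 of 24 lower, H2-Q4 (-0.50), with a median of 0.01, and none of 8 GIMAP genes was called (Gimap3 0.39, Gimap4 0.01).

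**Figure D4:**
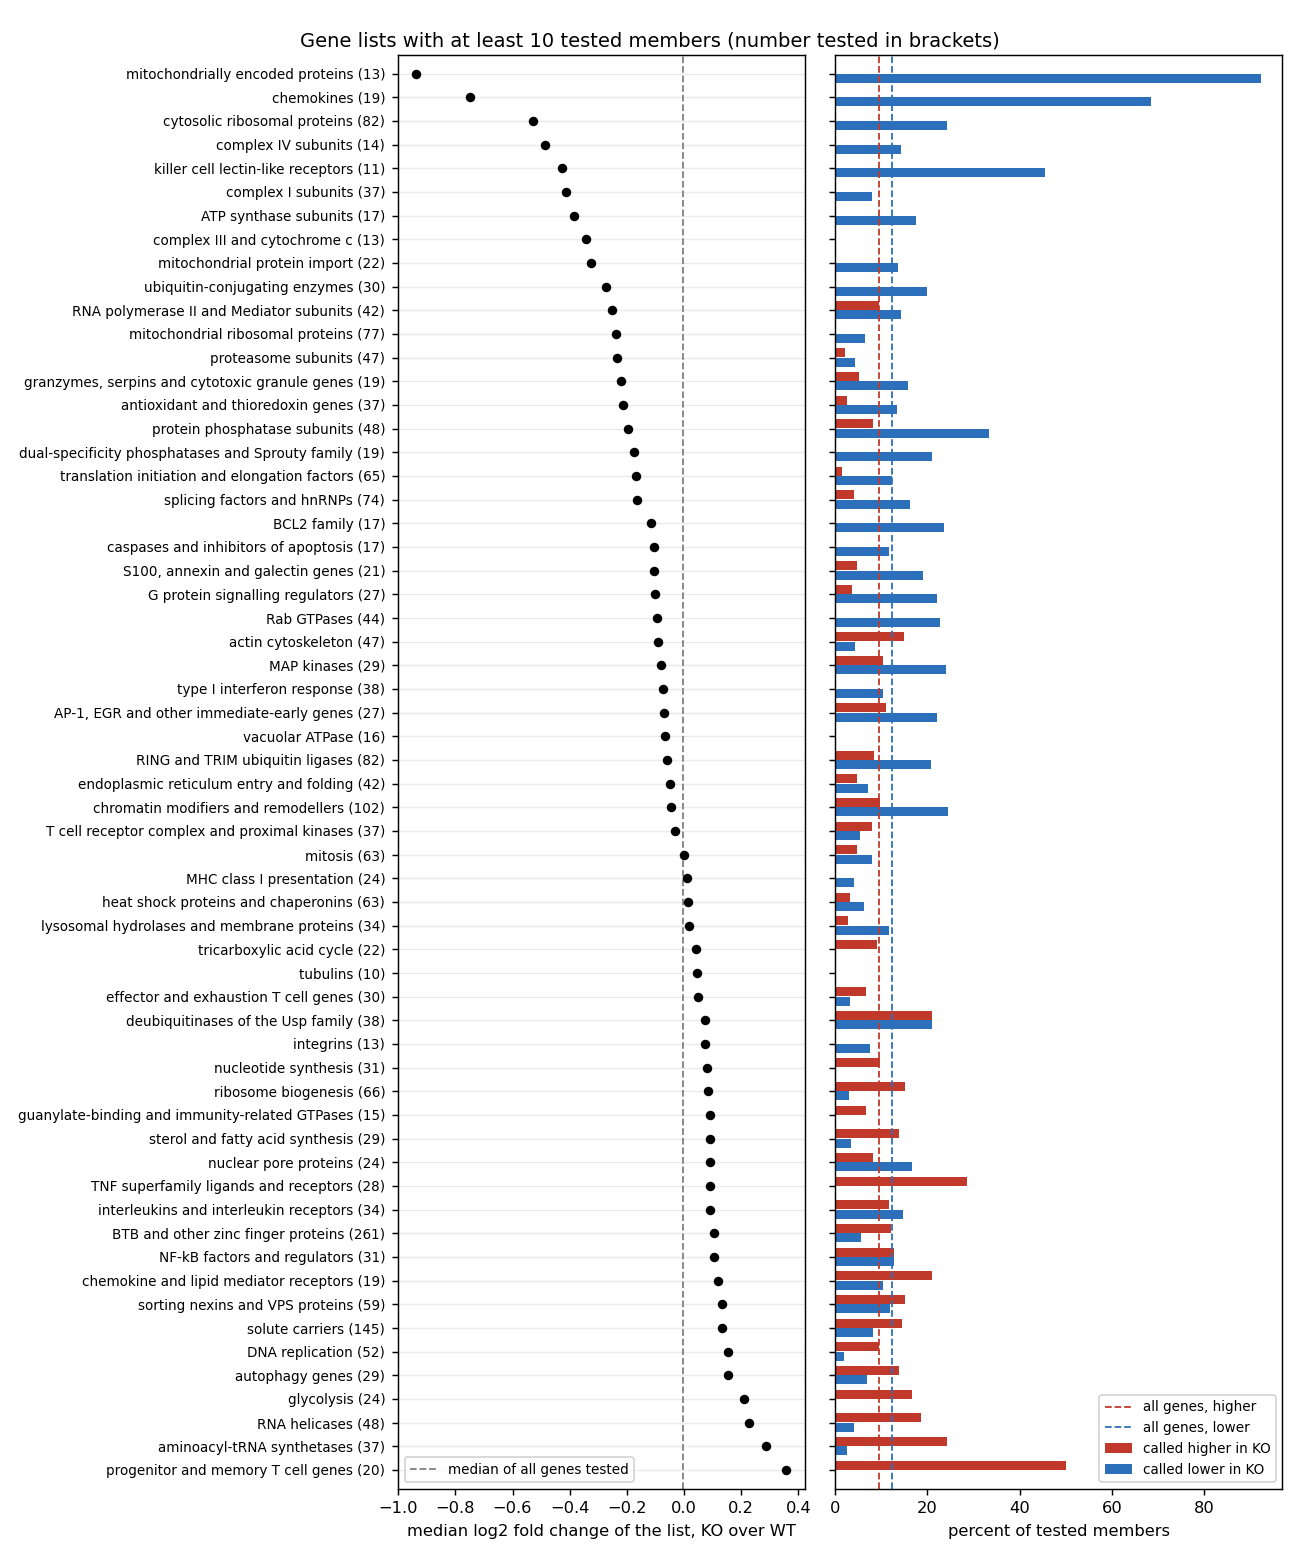
Median log2 fold change, KO over WT, after centring (left panel, dots) and percent of tested members called higher and lower in KO-labelled libraries (right panel, bars) for each gene list shown, all with at least 10 tested members, with dashed lines for all 9574 tested genes. Mitochondrially encoded genes (92.3% lower) and chemokines (68.4% lower) lie at one end and progenitor and memory genes (10 of 20 higher) at the other.

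Called genes differed in build from the rest. Genes called higher had a median coding length of 2016 bases and those called lower 1420.5 bases, against 1314 bases for all tested genes. The median 3′ untranslated region was 771 bases in the genes called higher and 1165.5 bases in those called lower, against 866 bases in all tested genes, and median transcript GC content was 53.7% and 48.6%, against 50.3%. The decile of genes with the shortest coding sequences had a median log2 fold change of -0.32, with 2.97% called higher and 16.7% lower, and the ninth decile a median of 0.18, with 22.8% higher and 12.6% lower. This moved with several of the lists above, since ribosomal proteins and most respiratory chain subunits are known to be small proteins, and its part in them was not tested. In the decile with the lowest GC content 2.12% were called higher and 17.7% lower. Nuclear chromosomes differed less than the mitochondrial one, where 92.3% of tested genes were called lower.

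**Figure D5:**
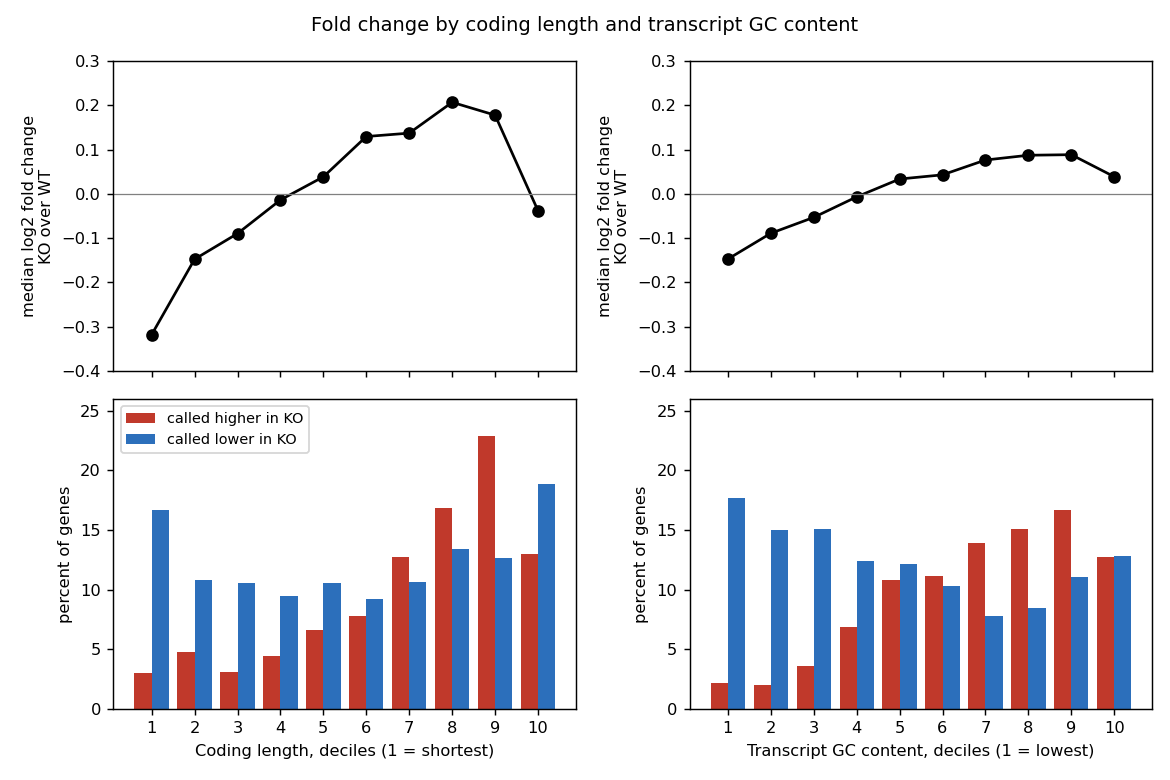
Median log2 fold change, KO over WT, after centring (top) and percent of genes called higher and lower in KO-labelled libraries (bottom) by deciles of coding length (left) and of transcript GC content (right) over the tested genes with an annotated transcript. The first decile by coding length has a median of -0.32 and the eighth 0.21.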

How the data were processed

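Per the labels' protocols, BGI sequenced TRIzol-extracted RNA of CD8+ T cells. Roles are not stated for the tools in the submitters' processing notes, which are DESeq2, RSEM, featureCounts, Bowtie2 and Trim Galore 0.4.4, with the build mm10. The authors deposited a table of all sorted OT-I cells whose header names no unit. Its values have the form of FPKM: times the GENCODE M21 merged exon length and 1 divisor per library, 98.4 to 98.5% of values under 1000 counts lay within 0.1 read of a whole number, for 16878 of 17147 matched genes in all 4 libraries. The deposited FPKM divisor was 1.12 and 1.25 times the recovered reads in KO-labelled libraries, against 0.963 and 0.952 times in WT-labelled libraries. The authors also deposited, for Ttex cells, a signal of gene counts divided by size factors (51.6 to 59.2 M recovered reads), from which values are given without test. Fold changes and p-values of the authors were not used, and 38 duplicated Ttex names were left out.

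Each library's FPKM was multiplied by 1 factor (1.08 and 1.13 for KO-labelled, 0.945 and 0.871 for WT-labelled libraries) so that the median of the tested genes was equal. Genotypes were compared with the two-sided limma-trend test of limma 3.58.1 on log2(scaled FPKM + 1), and genes were called at a Benjamini-Hochberg adjusted p under 0.05. The fit had 2 residual and 24.3 prior degrees of freedom, so the error of a gene is mostly that of genes at its level. In counts simulated at these depths for 9336 genes, it called 64.0% of 2-fold falls, 75.5% of 2-fold rises, 12.0% of 1.5-fold falls and 10.0% of 1.5-fold rises, and 0.0109% of unchanged genes. The changed genes were drawn only from genes with many reads, and all genes shared the same spread. No shift of a whole library or replicate was simulated, so these rates need not hold for the real libraries. Whole reads were tested with edgeR 4.0.16 and DESeq2 1.42.0 as alternatives chosen after seeing the data, as was centring after the pseudocount. Other alternatives were the deposited scale, upper-quartile scaling, other filters, pseudocounts and variance settings, a replicate block and leaving out each library.

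Named genes are Zbtb32, the 15 largest falls and 15 largest rises among calls that averaged 5 FPKM or more without overlap between genotypes, the 8 largest of each among those at 100 FPKM or more (predicted genes, pseudogenes and antigen receptor segments aside), and from each of 63 gene lists up to 3 calls in its main direction and 1 in the other, or its 2 most abundant members where none was called. Members of the mitochondrial, chemokine and progenitor lists and the cell type markers are named in addition. The lists, markers and rules were chosen with earlier results of these data known. Coordinates are GENCODE M21 on mm10. Promoters are from RefSeq (GRCm38.p6). A comparison of promoters between called sets was not made, since 78.5% of higher and 79.4% of lower calls had an entry. A few named genes and 1 list are not reported here.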

Additional observations from a re-analysis of the deposited data

Results flagged for a closer look

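For 21 of the genes with the largest changes, both KO-labelled libraries lay on one side of both WT-labelled libraries in all sorted OT-I cells and on the opposite side in Ttex cells. The log2 fold changes are set side by side here, with all sorted OT-I cells first, and the difference between the populations was not tested. The myeloid genes were lower in all sorted OT-I cells and higher in Ttex cells: Ccl8 had -2.04 and 1.55, C1qb -1.82 and 1.13, C1qa -1.79 and 1.09, Wfdc17 -1.76 and 1.68, Tyrobp -1.76 and 1.06, and Cd74 -0.87 and 1.24. The mitochondrially encoded genes did the same, with mt-Nd6 at -1.63 and 0.82, mt-Nd2 at -1.16 and 0.92, mt-Nd4 at -0.94 and 0.66, and mt-Co1 at -0.93 and 0.69.

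The opposite order was seen for 11 genes that were higher in all sorted OT-I cells. Rasa3 had 1.04 and -0.21, Chpf2 1.03 and -0.37, Wdr6 0.99 and -0.20, Mical1 0.97 and -0.22, and Dhx34 0.90 and -0.53. Among the abundant genes Akna had 0.66 and -0.24, Mcm3 0.64 and -0.32, Psmd2 0.62 and -0.19, Lcp1 0.61 and -0.35, Tnfrsf1b 0.61 and -0.40, and Msn 0.59 and -0.42. With the 2 tables normalized separately, a fold change near 0 in Ttex cells can change sign with the scaling.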

How the results depend on the processing

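The fit called 2092 genes, 911 higher and 1181 lower. The deposited scale gave 3144 (235 higher, 2909 lower), upper-quartile scaling 574 higher, no filter 3863 (2756 higher), a mean of at least 5 FPKM 1236 (599 lower), an adjusted p under 0.01 1089 (358 and 731), edgeR 4206 (1788 and 2418) and DESeq2 2199 lower. Pseudocounts of 0.1 and 5, no variance trend, robust hyperparameters and centring after the pseudocount kept all 3 counts within 1.5 times. Leaving out 1 library gave 890 to 2341 calls, 205 to 995 higher and 685 to 1346 lower, the smallest each time without WT-labelled replicate 1; the fit then leaves 1 library of a genotype, which is assumed to vary as the others do. Of the named genes Srp54b alone reversed: its log2 fold change ran from -1.67 without WT-labelled replicate 2 to 0.052 without WT-labelled replicate 1.

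Same-numbered replicates are not tied to shared hosts by the labels. The difference between replicates 1 and 2 correlated at 0.32 across genes between KO-labelled and WT-labelled libraries, and a replicate block gave 2729 calls, 1176 higher and 1553 lower.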

Other observations

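The largest rises in abundant genes were in predicted genes that the naming rule leaves out, chosen here after their values were seen. Gm10800 had 1053 and 1841 FPKM in KO-labelled libraries, against 589 and 615 FPKM in WT-labelled libraries (log2 fold change 1.49), and Gm21738 had 206 and 379 FPKM in KO-labelled libraries, against 113 and 111 FPKM in WT-labelled libraries (1.59). In both, KO-labelled replicate 2 was well above replicate 1.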
